A study of Mus musculus with 12 samples.

Results

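Heparan sulfate is a long sulfated sugar chain carried by proteins at the cell surface and in the matrix. Of 10 listed genes for the enzymes that build, sulfate and trim it, 8 had a probe on the array used here, out of 17658 genes with a probe. The 8 are Hs6st2, Hs3st1, Hs2st1, Ext1, Ext2, Ndst2, Glce and Sulf1. They were taken as every probe annotated with one of the listed symbols, which gave 20 probes. No probe carried the symbols Hs6st1 or Ndst1, and these genes were not analysed here. The set was chosen by earlier results of the same data, the higher Hs6st2 intensity with Jmjd1a knockdown and the higher Hs3st1 intensity with Jmjd2c knockdown. Those changes are therefore described below without a test, while the other genes were added for their function.

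The chain is started on a short linker sugar and lengthened in the Golgi by Ext1 and Ext2, which together form the polymerase. Ndst enzymes then replace acetyl groups by sulfate, the epimerase Glce converts glucuronic to iduronic acid, and the 2-O-, 6-O- and 3-O-sulfotransferases add further sulfates. Outside the cell Sulf1 removes 6-O-sulfates. The pattern of sulfates decides which proteins bind the chain. In mouse embryonic stem (ES) cells the chains are known for presenting fibroblast growth factors and other signals that move the cells toward differentiation.

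All 12 cultures were E14 mouse ES cells grown without feeder cells on gelatin with LIF, each transfected with 2 µg of a pSUPER puro plasmid for RNA interference by a short hairpin. The hairpin of 3 cultures was directed at Jmjd1a, now named Kdm3a, and that of 3 others at Jmjd2c, now Kdm4c. Both genes encode histone demethylases acting on lysine 9 of histone H3. For control, 6 cultures had a hairpin to firefly luciferase (Luc), which is foreign to mouse cells. Each gene was targeted with 1 hairpin as the labels describe it, and the labels call the cultures biological replicates. For the Luc cultures puromycin at 1 µg/ml was given for 4 days, while the dose and duration for the knockdown cultures are not given in the sources used here. RNA was hybridised to one-colour bead arrays, and the values are background-subtracted intensities in linear units.

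The arrays form 2 sets, a division that no label gives and that was read from the data and the order of the series: Jmjd1a with Luc replicates 1 to 3 (Luc 1-3), and Jmjd2c with Luc replicates 4 to 6 (Luc 4-6). Across tested probes, arrays of the same group and set correlated at r = 0.9946 to 0.997, and Luc 4-6 correlated with Luc 1-3 at r = 0.9622 to 0.9643. Each knockdown is compared with the Luc arrays of its own set. The comparison the series text states is with all 6 Luc arrays. Its values are given where they end a call stated for a named gene or turn the direction of a stated change. Mean intensity per array was 235.86 to 244.55, with 13591 to 14996 probes above an intensity of 32. Values under 32 were set to 32 before taking log2, and the 15853 probes above 32 on at least 3 arrays were tested with limma over all 12 arrays. An adjusted p is Benjamini-Hochberg adjusted over those probes and called under 0.05. Log2 changes are given with their SE and group means with the SD, with n = 3 arrays a group. Among the heparan sulfate enzymes 11 probes of the 8 genes were tested, and the other 9 probes lay above 32 on no array. The targets checked the labels: Kdm3a probe 101980097 averaged 239.2 in Jmjd1a arrays and 749.6 in Luc 1-3 arrays (limma adjusted p = 1.898e-08), and Kdm4c probe 3290341 averaged 103.87 in Jmjd2c arrays and 271.23 in Luc 4-6 arrays (adjusted p = 3.159e-08).

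The RefSeq promoter windows of Hs6st2 and Hs3st1 are shown because these genes carry the differences that define the set. Each runs from 250 bases before to 50 bases after an annotated start (assembly GRCm38.p6, minus strand, printed 5′ to 3′), with every CpG in capitals. Hs6st2 has one window at chrX:51681553-51681852 and another at chrX:51680428-51680727, and the Hs3st1 window is chr5:39644582-39644881.
Hs6st2 first window: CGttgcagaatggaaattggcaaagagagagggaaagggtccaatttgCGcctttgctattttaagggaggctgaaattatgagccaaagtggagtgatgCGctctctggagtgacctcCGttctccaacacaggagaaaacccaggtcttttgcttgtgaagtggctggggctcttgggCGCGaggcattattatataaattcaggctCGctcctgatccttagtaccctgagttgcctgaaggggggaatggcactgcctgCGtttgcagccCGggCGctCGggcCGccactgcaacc
Hs6st2 second window: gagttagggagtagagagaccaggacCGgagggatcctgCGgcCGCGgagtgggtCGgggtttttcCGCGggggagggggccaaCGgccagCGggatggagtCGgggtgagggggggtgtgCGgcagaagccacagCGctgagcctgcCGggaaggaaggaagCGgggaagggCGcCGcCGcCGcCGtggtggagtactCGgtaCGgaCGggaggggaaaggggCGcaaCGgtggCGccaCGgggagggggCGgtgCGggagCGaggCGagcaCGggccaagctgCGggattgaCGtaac
Hs3st1 window: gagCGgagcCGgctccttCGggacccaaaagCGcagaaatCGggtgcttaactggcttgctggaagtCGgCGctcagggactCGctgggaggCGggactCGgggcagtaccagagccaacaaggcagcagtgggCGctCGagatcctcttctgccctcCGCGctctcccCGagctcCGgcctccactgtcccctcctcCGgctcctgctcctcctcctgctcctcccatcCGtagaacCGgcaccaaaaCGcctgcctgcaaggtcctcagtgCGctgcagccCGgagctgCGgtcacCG
The windows differ in composition. The first Hs6st2 window holds 12 CpG and 53.7% G or C, and 39.6% of 32851 windows of the same length hold as many CpG. The second Hs6st2 window holds 33 CpG, which 8.56% of windows reach, and 71.7% G or C. The Hs3st1 window holds 24 CpG, which 20% of windows reach, and 67% G or C. The median window had 7 CpG. A set of 3 motifs were searched on both strands, none overlapping another. TATAAA, the core promoter TATA box, occurs in the first Hs6st2 window at position 196, counted from its 5′ end, and in 13.6% of all windows. GGGCGG, a GC box, occurs in the second Hs6st2 window at position 249, and in 35.7% of all windows. CACGTG, an E box, is in none of the 3 and in 7.15% of all windows. These are matches of letters only, and the arrays say nothing of which start was used.

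Hs6st2, a 6-O-sulfotransferase, was highest in the Jmjd1a arrays. Probe 105570053 read 209.1, 219.2 and 216.7 in Jmjd1a arrays, against 56.5, 69.6 and 70.4 in Luc 1-3 arrays. It read 77.8, 84.2 and 66.3 in Jmjd2c arrays, against 11.3, -1.0 and 8 in Luc 4-6 arrays. Every knockdown array thus lay above every Luc array of its set, while the Jmjd2c arrays overlapped with the Luc 1-3 arrays. The change that chose the gene was 1.72 ± 0.10 (log2) in Jmjd1a arrays, or 3.298-fold, and is given as a description. In Jmjd2c arrays the gene rose by at least 2.367-fold, a lower bound because all 3 Luc 4-6 arrays lay under 32 (fitted log2 change 1.24 ± 0.10, limma adjusted p = 2.488e-06). Against all 6 Luc arrays that rise did not pass (0.73, adjusted p = 0.1191), and the Jmjd1a change was 2.23.

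A second Hs6st2 probe, 101410452, was also highest in the Jmjd1a arrays, at lower readings. It read 114.5, 107.3 and 98.2 in Jmjd1a arrays, against 18.8, 26.8 and 28.2 in Luc 1-3 arrays, at least 3.327-fold higher. It read 37.3, 41.5 and 34.5 in Jmjd2c arrays, against 2.8, 2.4 and 10 in Luc 4-6 arrays. Again no knockdown array overlapped with the Luc arrays of its set, and all 6 Luc arrays lay under 32. Its rise in Jmjd2c arrays was at least 1.177-fold (log2 change 0.23 ± 0.07, limma adjusted p = 0.02538). Against all 6 Luc arrays it did not pass (adjusted p = 0.05725). The call was also lost without any one of Luc 4, Luc 5, Luc 6, Jmjd2c 1 or Jmjd2c 2 (adjusted p from 0.05316 to 0.1037). The other 3 Hs6st2 probes lay between -29 and 1.8 on all arrays. On probe 105570053 the Jmjd1a change minus the Jmjd2c change was 0.48 with values floored at 32, and -0.52 with a floor of 16, so the order of the 2 changes depends on where the unmeasured Luc 4-6 level is set. On probe 101410452 it was 1.5, and 0.90 with a floor of 16.

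Hs3st1, a 3-O-sulfotransferase whose product includes the antithrombin-binding site of heparin, showed another order of groups. Its 1 probe, 1850193, read 98.9, 88 and 86.5 in Jmjd2c arrays, against 5.9, 12.9 and -7.4 in Luc 4-6 arrays. It read 24.1, 19.3 and 17.8 in Jmjd1a arrays, against 31.5, 33.3 and 31.4 in Luc 1-3 arrays. The Jmjd2c arrays stood above the 9 others. Jmjd1a readings were lower than the Luc 1-3 readings, but of these 6 arrays only Luc replicate 2 exceeded 32, so no order is read from them. The probe was tested because 4 arrays exceeded 32, the 3 Jmjd2c arrays and Luc replicate 2. The change that chose the gene was at least 2.843-fold in Jmjd2c arrays (1.51 ± 0.06 log2), a description with no test. In Jmjd1a arrays the floored change was -0.02 ± 0.06 (limma adjusted p = 0.8814), with 5 of the 6 arrays at the floor. With the floor at 16 it was -0.66 (adjusted p = 0.001483), so the direction in Jmjd1a arrays rests on readings near background. The Jmjd1a change minus the Jmjd2c change was -1.53 on the floored scale.

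**Figure D1:**
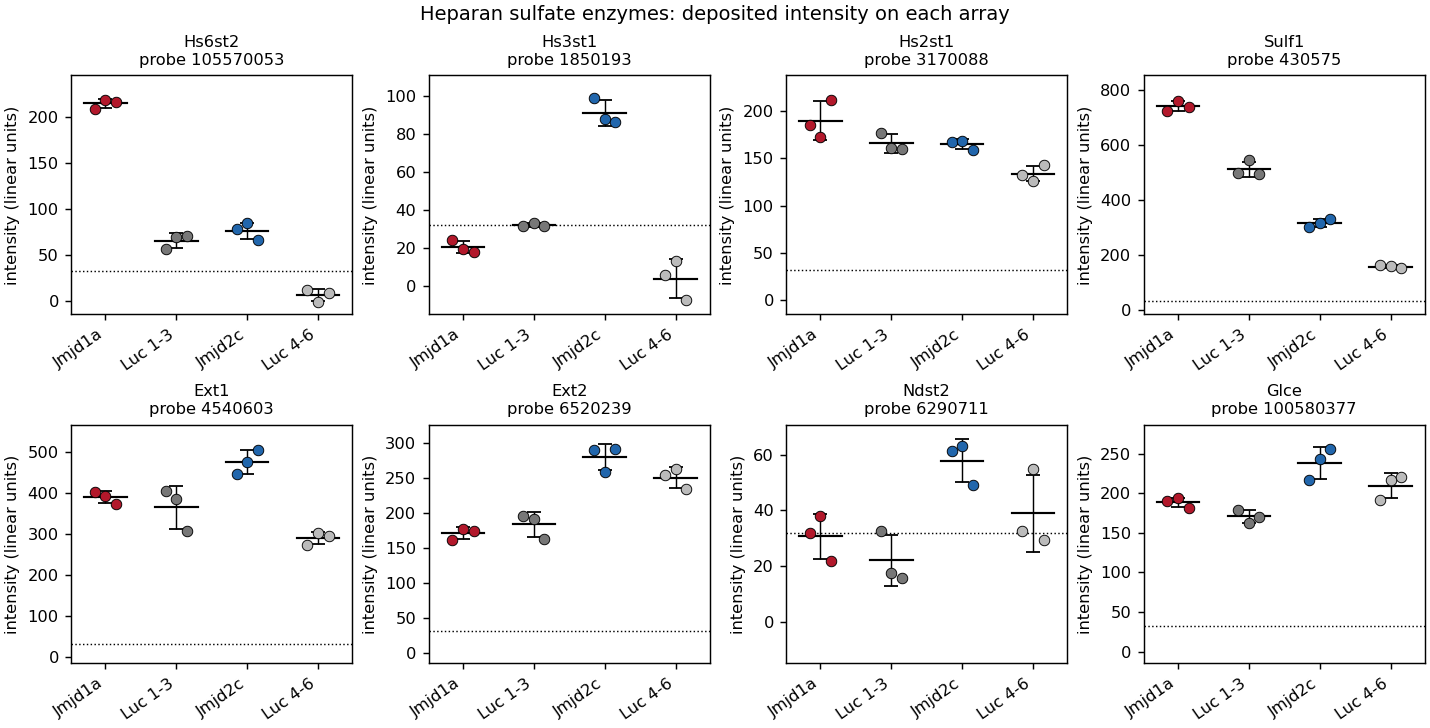
Deposited intensity (linear units, vertical axis) of the best-measured probe of each of the 8 genes, with 1 point per array in 4 groups, the mean as a line and the SD as bars; the dotted line is the floor of 32. Hs6st2 is highest in the 3 Jmjd1a arrays (209.1 to 219.2), Hs3st1 in the 3 Jmjd2c arrays (86.5 to 98.9), and Sulf1 steps down across the 4 groups with no overlap between neighbours.

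Sulf1, the extracellular sulfatase that removes 6-O-sulfates, rose in both knockdowns. Probe 430575 read 726.7, 762.7 and 738.4 in Jmjd1a arrays, against 498.2, 545.3 and 495.9 in Luc 1-3 arrays, a 1.448-fold rise (log2 change 0.53 ± 0.06, limma adjusted p = 5.455e-05). It read 304, 316.1 and 331.9 in Jmjd2c arrays, against 163.4, 160.3 and 152.8 in Luc 4-6 arrays, a 1.997-fold rise (1.00 ± 0.06, adjusted p = 3.252e-07). The groups ran Jmjd1a, Luc 1-3, Jmjd2c, Luc 4-6 from high to low, with no overlap between neighbours, so the 2 Luc sets also stood apart. Probe 100770064 gave the same order. It read 520.7, 452.8 and 485.1 in Jmjd1a arrays, against 312.4, 291.7 and 295.9 in Luc 1-3 arrays (0.69 ± 0.08, limma adjusted p = 7.362e-05). It read 178, 154.1 and 186.9 in Jmjd2c arrays, against 87.8, 94.4 and 85.6 in Luc 4-6 arrays (0.95 ± 0.08, adjusted p = 4.681e-06). The Luc 4-6 arrays were lower than the Luc 1-3 arrays by 1.69 on the log2 scale on the first probe, 3.229-fold (limma adjusted p = 1.623e-09) and by 1.75 on the second. Against all 6 Luc arrays the Jmjd2c rise was 0.15 and 0.08 on the 2 probes and was not called (adjusted p = 0.8642 and 0.9391), while the Jmjd1a rise was 1.38 and 1.57 (adjusted p = 0.04943 and 0.03524). The Jmjd1a change minus the Jmjd2c change was -0.46 ± 0.08 on probe 430575 (adjusted p = 0.002172) and -0.26 ± 0.11 on probe 100770064 (adjusted p = 0.1283). Another probe, 103800133, ranged from 18.5 to 37.6 and passed in neither knockdown, though in Jmjd2c arrays it passed with a floor of 16 (0.64, limma adjusted p = 0.02029), and the other 2 Sulf1 probes lay between -1.9 and 17.6.

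Hs2st1, the 2-O-sulfotransferase of the pathway, rose in Jmjd2c arrays by a small amount. It read 185.5, 172.3 and 212.2 in Jmjd1a arrays, against 177, 160.7 and 159.5 in Luc 1-3 arrays. It read 167.2, 168.8 and 158.7 in Jmjd2c arrays, against 132.1, 126.5 and 142.5 in Luc 4-6 arrays. The first pair of groups overlapped and the second did not. The change was 0.19 ± 0.08 in Jmjd1a arrays (limma adjusted p = 0.1092), and the rise in Jmjd2c arrays was 0.30 ± 0.08, or 1.234-fold (adjusted p = 0.01146). Luc 4-6 arrays themselves lay lower than Luc 1-3 arrays, by 0.31 on the log2 scale (adjusted p = 0.006084). Against all 6 Luc arrays the Jmjd2c rise was 0.15 and did not pass (adjusted p = 0.4459). The 2 knockdown changes did not differ past the threshold (-0.11 ± 0.11, adjusted p = 0.534).

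Of the subunits of the chain polymerase, Ext1 rose in Jmjd2c arrays, and Ext2 passed the test in neither knockdown. Ext1 read 446.4, 475.7 and 506.3 in Jmjd2c arrays, against 273.5, 303 and 295.6 in Luc 4-6 arrays, a 1.637-fold rise without overlap (0.71 ± 0.10, limma adjusted p = 0.0001457). It read 403.5, 393.4 and 374.7 in Jmjd1a arrays, against 405.2, 385.6 and 306.6 in Luc 1-3 arrays, which overlapped (0.10 ± 0.10, adjusted p = 0.4982). The Jmjd2c arrays were the highest 3 of the 12. The Jmjd1a change minus the Jmjd2c change was -0.61 ± 0.14 (limma adjusted p = 0.00739, in a comparison that called 24.2% of tested probes, 12.4% as higher and 11.8% as lower), and the Jmjd2c rise also passed against all 6 Luc arrays (0.55, adjusted p = 0.01342). Ext2 read 289.8, 258.1 and 291.3 in Jmjd2c arrays, against 254, 263.4 and 234 in Luc 4-6 arrays, with overlap (0.16 ± 0.08, limma adjusted p = 0.1557). It read 161.8, 177.2 and 174.8 in Jmjd1a arrays, against 195.5, 191.9 and 163.5 in Luc 1-3 arrays, also with overlap (-0.10 ± 0.08, adjusted p = 0.4566). Its main split was between the array sets, the Luc 4-6 arrays being higher than the Luc 1-3 arrays by 0.45 ± 0.08 (adjusted p = 0.0005821). Its other 2 probes read -2.5 to 27.6. The difference between Ext1 and Ext2 was not itself tested.

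Ndst2 and Glce act on the new chain before the O-sulfotransferases. Ndst2, an N-deacetylase and N-sulfotransferase, was dim, at 61.3, 63.3 and 49.1 in Jmjd2c arrays, against 32.5, 55 and 29.3 in Luc 4-6 arrays. It read 31.8, 38.2 and 22 in Jmjd1a arrays, against 32.7, 17.7 and 15.9 in Luc 1-3 arrays. Both pairs of groups overlapped. The Jmjd2c rise of 0.58 ± 0.18 passed (limma adjusted p = 0.02399), but not without Luc 4 (0.09492), Luc 6 (0.09534), Jmjd2c 1 (0.07231) or Jmjd2c 2 (0.07955). The Jmjd1a change was 0.07 ± 0.18 (adjusted p = 0.8373), and the change minus that of Jmjd2c was -0.50 ± 0.25 (adjusted p = 0.1777).

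Glce, the epimerase, read 190.1, 193.4 and 181.7 in Jmjd1a arrays, against 179.3, 162.8 and 170.5 in Luc 1-3 arrays. It read 216.5, 242.6 and 256 in Jmjd2c arrays, against 191.9, 216.8 and 220.4 in Luc 4-6 arrays. The Jmjd1a arrays lay just above their Luc arrays, and the Jmjd2c arrays overlapped with theirs. Neither change passed the test: it was 0.14 ± 0.08 in Jmjd1a arrays (limma adjusted p = 0.2178) and 0.18 ± 0.08 in Jmjd2c arrays (adjusted p = 0.07997). The Luc 4-6 arrays were higher than the Luc 1-3 arrays by 0.29 ± 0.08 (adjusted p = 0.006011), or by 0.10 with quantile normalization (adjusted p = 0.2702). Its other 2 probes read -15.6 to 17.3.

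Counted with the best-measured probe per gene, and with the genes that chose the set included, 2 of the 8 genes rose in Jmjd1a arrays (Hs6st2 and Sulf1) and 6 did not pass. Over all tested probes 25.5% were called in that comparison, 13.4% as higher and 12.1% as lower. In Jmjd2c arrays 6 of the 8 rose (Hs6st2, Hs3st1, Hs2st1, Ext1, Ndst2 and Sulf1), Ext2 and Glce did not pass, and none fell. Against all 6 Luc arrays 3 of the 8 rose (Hs3st1, Ext1 and Ndst2). Against Luc 4-6 arrays 39% of tested probes were called, 20.7% as higher and 18.2% as lower. Against all 6 Luc arrays 17.8% were called in Jmjd1a arrays and 12% in Jmjd2c arrays. The median log2 change of the 8 was 0.12 in Jmjd1a arrays, against 0 over all tested probes, and 0.65 in Jmjd2c arrays, against 0.01 over all tested probes. Both comparisons helped to choose the set, so these counts and medians describe it and are read no further. Between the Luc sets, where 58% of tested probes were called, 37.1% as higher and 20.9% as lower in Luc 4-6 arrays, Ext2 and Glce were higher in Luc 4-6 and Hs6st2, Hs2st1, Ext1 and Sulf1 were lower, while Hs3st1 and Ndst2 did not pass. The Ext1 call was lost with the 6 Luc arrays fitted alone (adjusted p = 0.05926), without Luc 1 (0.05906) or without Luc 4 (0.05065), and the Hs6st2 call with a floor of 64 (0.3264). For Hs3st1 only Luc 2 exceeded 32, so its change between the Luc sets rests on the floor (limma adjusted p = 0.8065). That change was -1.0025 with a floor of 16 (adjusted p = 2.168e-05) and -1.1066 with a smooth log2 without a floor (0.0002071), from readings near background. Ndst2 passed as higher in Luc 4-6 arrays with the smooth log2 (0.5385, adjusted p = 0.04641). The cause of the difference between the control sets was not tested.

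**Figure D2:**
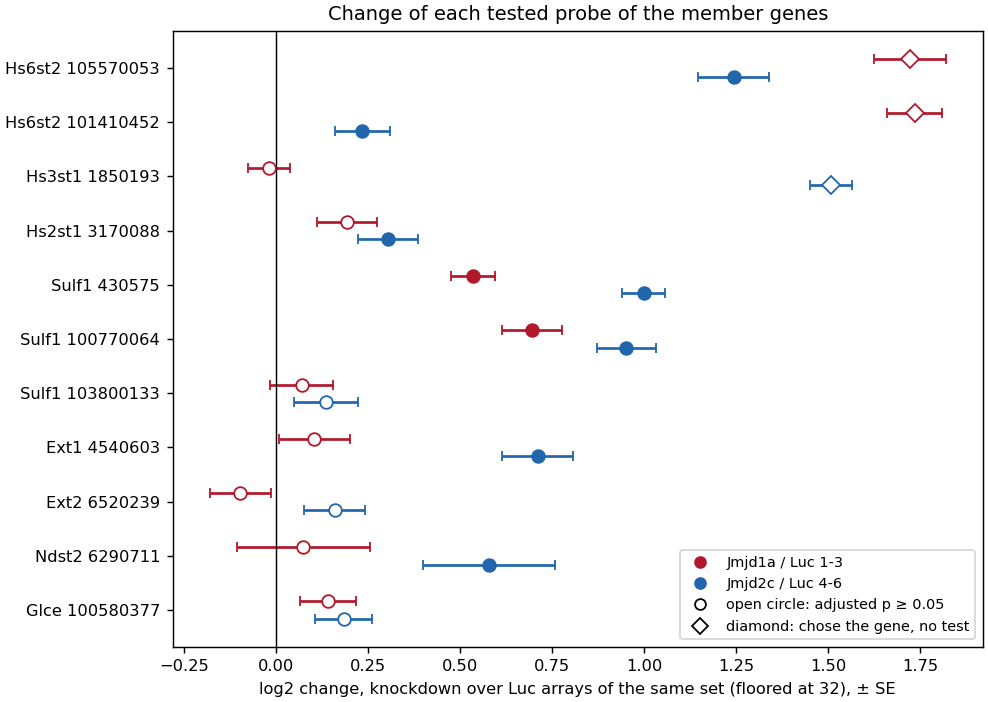
Log2 change (horizontal axis, ± SE, n = 3 arrays a group, values floored at 32) of each of the 11 tested probes in Jmjd1a arrays over Luc 1-3 (red) and Jmjd2c arrays over Luc 4-6 (blue). Filled circles passed limma's test, open circles did not, and diamonds mark the changes that chose the genes; Sulf1 probes 430575 and 100770064 are filled in both knockdowns and Ext1 in Jmjd2c only.

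Genes whose pattern over the 12 arrays was most like that of Hs6st2 (probe 105570053, Pearson r of floored log2 values among 12242 probes with a gene name) were Fst, encoding follistatin, with r = 0.9921, Cdx2, a transcription factor of the trophectoderm, with r = 0.9865, and Cbr3 with r = 0.9857. Cdx2 averaged 162.73 ± 2.593 in Jmjd1a arrays and 70.533 ± 3.002 in Luc 1-3 arrays, and 64.5 ± 5.116 in Jmjd2c arrays and 20.3 ± 13.08 in Luc 4-6 arrays. Most like Hs3st1 were Fhl2 (r = 0.9983), Cd109 (r = 0.9975) and Limch1 (r = 0.9959). All 3 were dim, with highest readings of 50.2, 51.5 and 42, and most of their arrays lay at the floor as those of Hs3st1 did. These correlations describe 12 arrays that share the same 4 groups.

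Markers of other cell types moved with the knockdowns, and their part in the changes above was not tested. In bulk RNA fewer cells of a type and less RNA per cell cannot be told apart. Over all tested probes 13.4% were called as higher and 12.1% as lower in Jmjd1a arrays, and 20.7% and 18.2% in Jmjd2c arrays. Those shares stand beside the counts of every marker list below. Of the 17 primitive endoderm markers 13 were tested. In Jmjd2c arrays 10 rose and 1 fell, with summed intensities of 6942.8 to 7226.7, against 2991.1 to 3104.6 in Luc 4-6 arrays. In Jmjd1a arrays none rose and 8 fell, with sums of 2856.2 to 2979.9, against 4702.9 to 4885.1 in Luc 1-3 arrays. When set against all 6 Luc arrays, the Jmjd1a falls of Gata6, Col4a1 and Col4a2 passed. Those of Dab2, Pdgfra, Lamc1, Cubn and Amn did not (limma adjusted p from 0.06819 to 0.9447). In Jmjd2c arrays the rises of Dab2 (0.2395), Lamc1 (0.7783) and Cubn (0.06617) did not pass that comparison, nor did the fall of Hnf4a (0.6188). The other Jmjd2c rises passed. In the sums, as for Hs3st1, the Jmjd2c arrays were highest. Readings of Hs3st1 in the other groups lay too near or under 32 to be ordered. Afp, Sox7 and Ttr were under 32 on all arrays. Lama1 was under 32 on all arrays of the 3 other groups and read 40.1 to 42.2 in Jmjd2c arrays. It was thus tested only through the Jmjd2c arrays, and its rise, counted among the 10, describes that filter as well. Foxa2 exceeded 32 on 1 array only, a Jmjd2c array at 37.7, and was not tested.

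Of 9 trophectoderm markers, Cdx2 among them, 7 were tested. Of these, 5 rose in Jmjd1a arrays and 3 in Jmjd2c arrays, beside 13.4% and 20.7% of all tested probes called as higher. When set against all 6 Luc arrays, the Jmjd1a rises of Cdx2 and Krt8 passed. Those of Eomes, Krt18 and Krt7 did not (limma adjusted p = 0.05388, 0.4548 and 0.7863), and Krt7 turned from 0.83 to -0.22. In Jmjd2c arrays Krt8 and Krt18 passed that comparison and Cdx2 did not (0.42, adjusted p = 0.4057). The sums of the 9 markers were 1867.9 to 1973.2 in Jmjd1a arrays, against 1625.9 to 1677.3 in Luc 1-3 arrays, and 3649.5 to 3973.9 in Jmjd2c arrays, against 2604.9 to 3168.5 in Luc 4-6 arrays. The sums were highest in Jmjd2c arrays, and most of each came from Tfap2c, which passed in neither knockdown and averaged 1024.5 in Jmjd1a arrays and 1156.5 in Luc 1-3 arrays, and 2221 in Jmjd2c arrays and 2178.1 in Luc 4-6 arrays. Cdx2 itself was highest in Jmjd1a arrays, as Hs6st2 was. Elf5 and Hand1, which mark this lineage, were under 32 on all arrays. Of 6 primed epiblast markers 5 were tested and 3 rose in each knockdown. These were Fgf5, Pou3f1 and Dnmt3b in Jmjd1a arrays, and Pou3f1, Dnmt3b and Sox4 in Jmjd2c arrays. Against all 6 Luc arrays none of the latter 3 passed, at 0.08, -0.24 and -0.03 (limma adjusted p = 0.9619, 0.7859 and 0.9641). In Jmjd1a arrays Dnmt3b did not pass that comparison either (0.06369). Sums of the list were 10656.2 to 11980.4 in Jmjd1a arrays, against 8266.2 to 8495 in Luc 1-3 arrays, and 4037.3 to 4304.1 in Jmjd2c arrays, against 2762 to 3059.8 in Luc 4-6 arrays. These sums fell in the same group order as Sulf1, and most of each came from Dnmt3b. That gene averaged 9838.8 in Jmjd1a arrays and 7180.1 in Luc 1-3 arrays, and 3330.4 in Jmjd2c arrays and 2158 in Luc 4-6 arrays. Pou3f1 means ran in that order as well, while those of Otx2 and Sox4 did not. Zic2 exceeded 32 on 1 array only, a Luc 1-3 array at 33.3, and was not tested. Fgf5 was under 32 in Jmjd2c and Luc 4-6 arrays. The ES cell label was checked with 10 markers, of which 9 were tested and Dppa5a was under 32 throughout. Of these 9, 5 fell in Jmjd1a arrays and 3 in Jmjd2c arrays, beside 12.1% and 18.2% of all tested probes called as lower, and none rose. When set against all 6 Luc arrays, the Jmjd1a falls passed. Of the Jmjd2c falls Tdgf1 passed (limma adjusted p = 0.01976), and Sox2 (0.1107) and Nanog (0.1089) did not. Sums of the 10 ES cell markers were 21972.3 to 22102.5 in Jmjd1a arrays, against 28923.4 to 30710.3 in Luc 1-3 arrays. They were 28665.6 to 29088.7 in Jmjd2c arrays, against 32995.7 to 33773.9 in Luc 4-6 arrays. Of 10 fibroblast markers 3 were tested, of which 1 fell in Jmjd1a arrays and 2 fell in Jmjd2c arrays. The Jmjd2c fall of Pdgfrb did not pass against all 6 Luc arrays (-0.15, limma adjusted p = 0.7945). The 10 markers summed to at most 287.9 on any array, with Col1a1, Col1a2, Col3a1, Lum, Postn and S100a4 under 32 throughout.

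**Figure D3:**
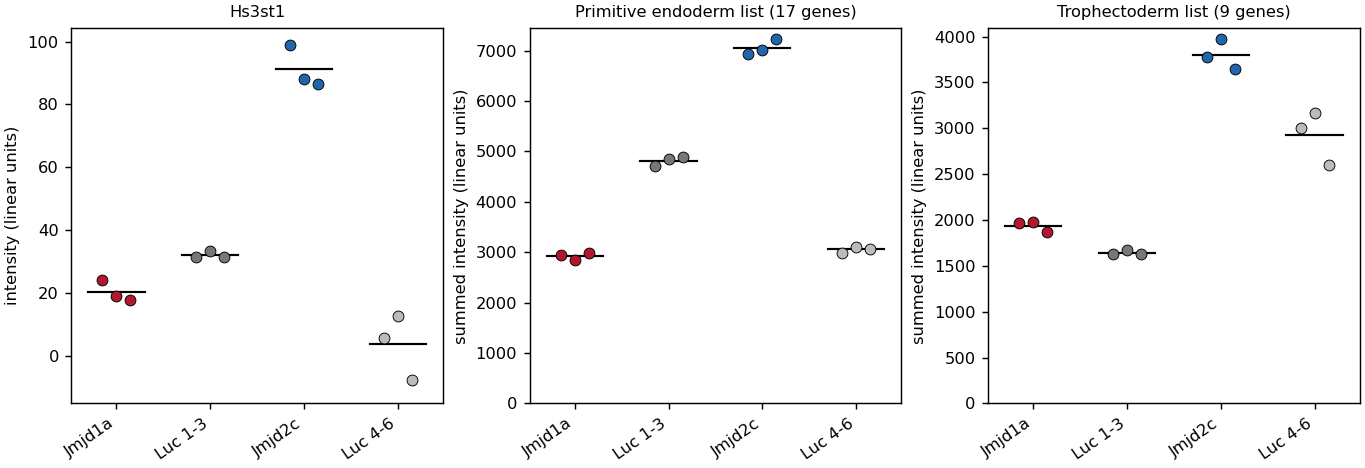
Intensity of Hs3st1 (left) and summed intensity of the 17 primitive endoderm and the 9 trophectoderm markers (middle and right), linear units, 1 point per array in 4 groups with the mean as a line. Hs3st1, chosen for its level there, and both sums are highest in Jmjd2c arrays (86.5 to 98.9, 6942.8 to 7226.7 and 3649.5 to 3973.9).

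The wider pathway was described with a list of 79 genes written with earlier results known, of which 67 were on the array and 43 were tested. In Jmjd1a arrays 12 of the 43 rose, 5 fell and 26 did not pass, with a median log2 change of 0.07, against 0 over all tested probes. In Jmjd2c arrays 11 rose, 5 fell and 27 did not pass, with a median of 0.11, against 0.01. Beyond the 8 enzymes, 35 genes were tested, of which 10 rose and 5 fell in Jmjd1a arrays and 5 rose and 5 fell in Jmjd2c arrays. Those shares stand beside the 25.5% and 39% of all tested probes called.

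Chst7 and Slc35d1, which serve sulfation and sugar supply, were among the genes that rose in both knockdowns. Chst7, which sulfates N-acetylglucosamine and chondroitin, averaged 82.233 ± 3.037 in Jmjd1a arrays and 32.633 ± 1.762 in Luc 1-3 arrays (1.32, limma adjusted p = 1.225e-06). It averaged 64.167 ± 8.523 in Jmjd2c arrays and 32.2 ± 4.423 in Luc 4-6 arrays (0.92, adjusted p = 1.367e-05). Slc35d1, which carries UDP-sugars into the secretory pathway, averaged 548.13 ± 8.819 in Jmjd1a arrays and 341 ± 11.66 in Luc 1-3 arrays (0.69, limma adjusted p = 1.224e-05). It averaged 692.97 ± 21.92 in Jmjd2c arrays and 383.7 ± 29.42 in Luc 4-6 arrays (0.86, adjusted p = 1.572e-06). Both genes also passed in both knockdowns against all 6 Luc arrays, with log2 changes of 1.30 and 0.93 for Chst7 and 0.60 and 0.94 for Slc35d1 in Jmjd1a and Jmjd2c arrays. Chst7 lay near the floor in Luc arrays, at 31 to 34.5 in Luc 1-3 and 27.2 to 35.6 in Luc 4-6. Its call in Jmjd2c arrays was lost with a floor of 64 (0.07, limma adjusted p = 0.2524). In Jmjd2c arrays Slc35b3, a carrier of the sulfate donor, rose by 0.51 (adjusted p = 0.0001562) and did not pass in Jmjd1a arrays (0.11, adjusted p = 0.29). Extl2, which adds N-acetylhexosamine to the linker, rose in both knockdowns, by 0.43 in Jmjd1a arrays (limma adjusted p = 0.001387) and by 0.46 in Jmjd2c arrays (0.0006309). Chst15, a chondroitin sulfotransferase, also rose in both, by 0.25 in Jmjd1a arrays (adjusted p = 0.04985) and by 0.31 in Jmjd2c arrays (0.01292). Chst15 did not pass in Jmjd2c arrays against all 6 Luc arrays (0.20, adjusted p = 0.2528).

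Core proteins, which carry the chains, were the largest group tested, with 10 genes. In Jmjd1a arrays 4 rose and 2 fell, and in Jmjd2c arrays none rose and 2 fell, beside 25.5% and 39% of all tested probes called. Among the syndecans and glypicans, Sdc2 rose by 0.67 (limma adjusted p = 0.01105) and Gpc4 by 0.61 (adjusted p = 0.005256) in Jmjd1a arrays. Gpc3, an X-linked glypican, fell in both, to 176.1 ± 5.462 in Jmjd1a arrays, against 244.3 ± 8.058 in Luc 1-3 arrays (-0.47, limma adjusted p = 0.0001139), and to 205.37 ± 8.901 in Jmjd2c arrays, against 261.43 ± 11.88 in Luc 4-6 arrays (-0.35, adjusted p = 0.0006293). Gpc2 fell by 0.26 in Jmjd1a arrays (adjusted p = 0.01244), and agrin (Agrn) fell by 0.62 in Jmjd2c arrays (adjusted p = 0.0001203). Sdc2 did not pass against all 6 Luc arrays (0.14, adjusted p = 0.7706). The same held for Sdc3 (adjusted p = 0.8086) and Sdc4 (0.9657), the other syndecans that rose in Jmjd1a arrays, named here after their values were seen. The Sdc4 change turned from 0.48 (limma adjusted p = 0.0004179) against Luc 1-3 to -0.02 against all 6 Luc arrays. The calls of Sdc2 and Gpc4 were also lost with arrays of one set only (0.09229 and 0.05637), and that of Gpc4 with a floor of 16 (0.07868).

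The other falls were in genes of the linker, of the chain, of lysosomal breakdown and of the chondroitin branch. Pxylp1, a phosphatase that acts on the linker xylose, fell by 0.58 in Jmjd1a arrays (limma adjusted p = 0.0002318) and by 0.88 in Jmjd2c arrays (adjusted p = 7.503e-06), though in Jmjd2c arrays the change against all 6 Luc arrays was -0.24 (adjusted p = 0.7074). The 5 other linkage genes tested passed in neither knockdown. Extl1 fell by 0.77 in Jmjd2c arrays (adjusted p = 0.003735), and by less against all 6 Luc arrays, where it did not pass (-0.32, adjusted p = 0.5094). Of 3 lysosomal enzymes tested, Gusb fell by 0.55 in Jmjd1a arrays (limma adjusted p = 0.009346), a call lost with arrays of one set only (0.08556). Naglu averaged 72.067 ± 7.623 in Jmjd2c arrays and 151.77 ± 5.164 in Luc 4-6 arrays (-1.08, adjusted p = 7.185e-07). It was under 32 in Jmjd1a and Luc 1-3 arrays, so against all 6 Luc arrays its Jmjd2c change turned to 0.04 (adjusted p = 0.9756). In the chondroitin branch 6 genes were tested, of which 3 rose and 1 fell in Jmjd1a arrays and 2 rose in Jmjd2c arrays. Ust, which sulfates uronic acid in chondroitin and dermatan sulfate, rose by 0.82 in Jmjd1a arrays (limma adjusted p = 0.009694). Chpf, a subunit of the chondroitin polymerase, fell by 0.20 (adjusted p = 0.03022), a call lost without Luc 2, Jmjd1a 2 or Jmjd1a 3 (adjusted p up to 0.1148).

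**Figure D4:**
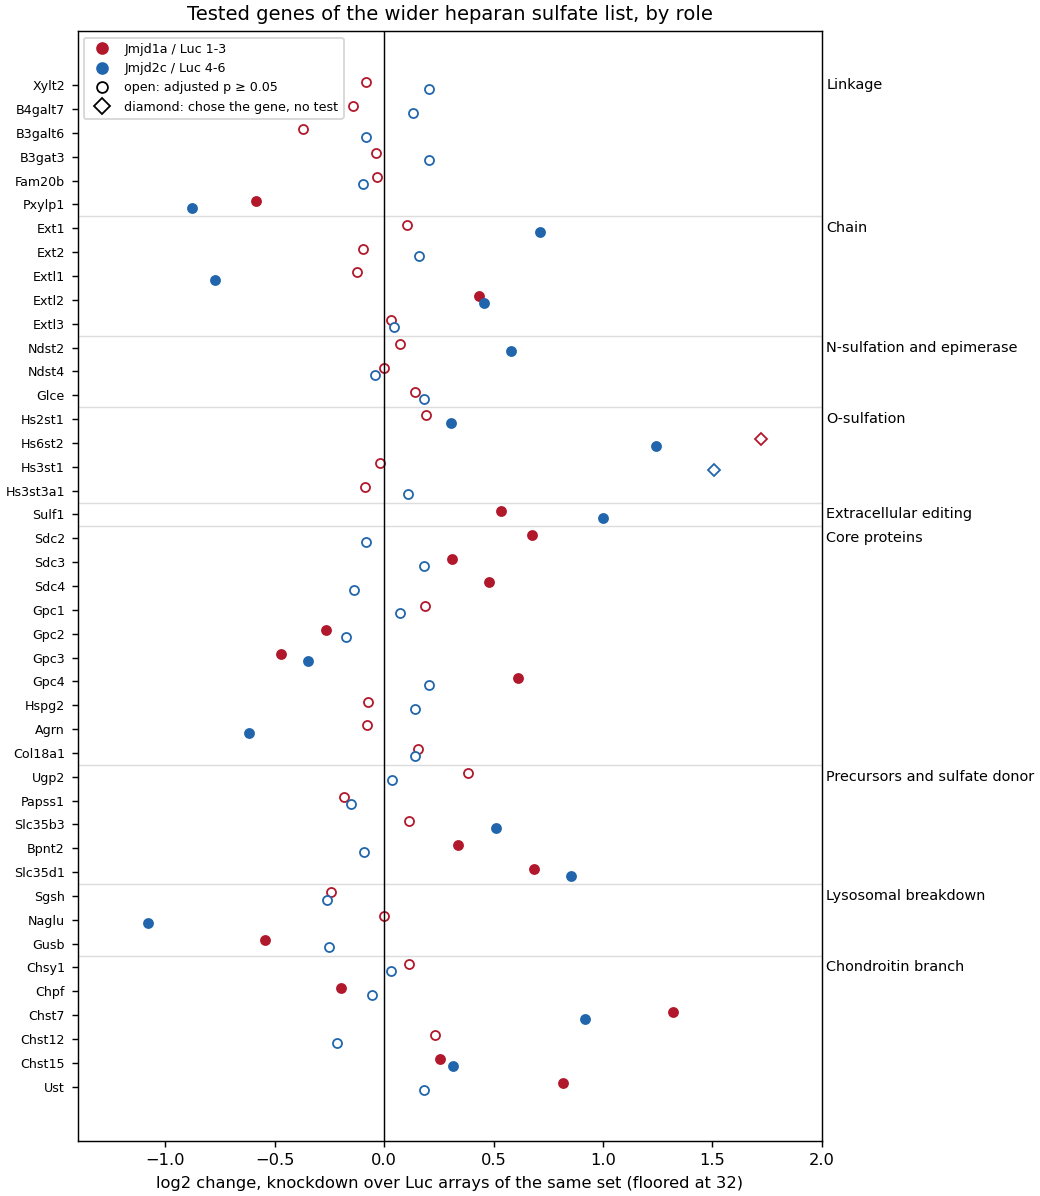
Log2 change (horizontal axis, values floored at 32) of each of the 43 tested genes of the wider list, ordered by role, in Jmjd1a arrays over Luc 1-3 (red) and Jmjd2c arrays over Luc 4-6 (blue). Filled circles passed limma's test, open circles did not, and diamonds mark the changes that chose the genes; Chst7 and Slc35d1 are filled to the right of 0 in both, and Gpc3 and Pxylp1 to the left.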

How the data were processed

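RNA of 12 E14 cultures was hybridised to one-colour Illumina bead arrays of 46133 probes. The deposited intensity values are linear. On each array 34.96% to 36.82% of them lie below 0, so the authors had subtracted a background. The method of subtraction, and any scaling of arrays, are not given in the sources used here. Values were used as deposited, floored at 32 and put on the log2 scale. Probes above 32 on at least 3 arrays were tested with limma 3.58.1 in R 4.3.3, with 4 cells (Jmjd1a, Luc 1-3, Jmjd2c, Luc 4-6) and 8 residual degrees of freedom. A fold against a group wholly under 32 is a lower bound, and the floor removes that group's spread, so its SE and p-value do not measure it. The number of arrays limits precision, and the p-values measure the spread between cultures as labelled.

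Symbols come from the platform's probe annotation, which can be old: 29542 probes carry 1 symbol, 11 several and 16580 none. Gene IDs of 29484 probes were found in a RefSeq table of GRCm38.p6, with 0 symbols updated. Promoter windows were found for 7 of the 10 listed genes.

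Named beyond the 8 enzymes are the targets, up to 5 called rises and falls of the wider list in each knockdown, and the 3 genes most like Hs6st2 and Hs3st1. The genes, lists and tests were chosen with earlier results of these data known. Alternatives tried were all 6 Luc arrays, arrays of one set only, quantile normalization, floors of 16 and 64, a smooth log2 without a floor, other filters, a replicate block and leaving out each array.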

Additional observations from a re-analysis of the deposited data

Results flagged for a closer look

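In the 6 Luc arrays 3 probes had an array far from the rest on the floored log2 scale, measured as the gap to the nearest array over the whole range. The ratio was 1 for Hs3st1 probe 1850193, 0.96 for Ndst2 probe 6290711 and 1 for Sulf1 probe 103800133. On the deposited scale it was 0.327, 0.57 and 0.556, below the critical value for 6 samples, so the distance comes from setting the other arrays to 32. Chance marks about 1 in 20 groups in this way.

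The difference between the knockdown changes stands out for Hs3st1, Ext1 and Sulf1, beside that of Hs6st2, which also chose the set and is described above without a test. For Hs3st1 the Jmjd1a change minus the Jmjd2c change was -1.53, a difference that was not tested because it chose the gene. For Ext1 it was -0.607 (limma adjusted p = 0.00739), with a rise in Jmjd2c arrays that passed and a Jmjd1a change that did not. For Sulf1 probe 430575 it was -0.464 (adjusted p = 0.002172), both knockdowns being higher than their Luc arrays, while Sulf1 probe 100770064 gave an adjusted p of 0.1283 for the same difference. In all tested probes 24.2% were called in this comparison.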

How the results depend on the processing

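The number of probes called in Jmjd1a arrays was 4040, 3218 to 4099 without single arrays and 3887 with the replicate number as a block. In Jmjd2c arrays it was 6176, 5206 to 6221 without single arrays, 5981 with the block and 1896 against all 6 Luc arrays. Between Luc sets it was 9199, 8430 to 9307 without single arrays and 9101 with the block, and for the difference of the 2 changes 3844, 3179 to 3532 without single arrays and 3667 with the block. The block covered Jmjd1a and Luc 1-3 arrays, since Jmjd2c arrays share no number with Luc 4-6 arrays, so it touches the other comparisons only through the shared spread. Replicate numbers did not pair the Jmjd1a and Luc 1-3 arrays: deviations of same-numbered arrays correlated at -0.002, 0.0144 and 0.1077, and not every array correlated best with its own number. On the wider list the genes called in Jmjd1a arrays numbered 17 (14 to 17 without single arrays, 18 with the block), and 11 when probes had to exceed 32 on all 12 arrays. In Jmjd2c arrays they numbered 16 (15 to 17 without single arrays, 16 with the block), and 9 against all 6 Luc arrays. Directions turned in these cases, among them the called fall of Naglu and the untested Hs6st2 difference: against all 6 Luc arrays for Ndst2 (-0.054) and Glce (-0.0054) in Jmjd1a arrays and Naglu in Jmjd2c arrays (0.0431); without single arrays for Ext1 (-0.0181 to 0.183) and Ndst2 (-0.0104 to 0.1173) in Jmjd1a arrays; and in the difference of the 2 changes for Hs6st2 probe 105570053 with a floor of 16 (-0.52) or a smooth log2 (-0.39), Glce without single arrays (-0.1102 to 0.0201) and Sulf1 probe 103800133 with quantile normalization (0.0676) or without single arrays (-0.1335 to 0.0093). Against all 6 Luc arrays the called rises of Sdc4 (-0.02) and Krt7 (-0.22) in Jmjd1a arrays also turned. So did the called rises of Dnmt3b (-0.24) and Sox4 (-0.03) in Jmjd2c arrays. The Ndst2 rise in Jmjd2c arrays was not called with arrays of its set only (adjusted p = 0.1233), a floor of 16 (0.1897) or a smooth log2 (0.08932), nor the second Hs6st2 probe with quantile normalization (0.1086). Changes that did not pass in full passed for Hs2st1 in Jmjd1a arrays without Jmjd1a 2 (0.04938) and for Glce in Jmjd2c arrays without Jmjd2c 1 (0.02814) or with a floor of 64 (0.04929), for Sulf1 probe 103800133 in Jmjd2c arrays with a smooth log2 (0.0178), and in the difference of the 2 changes for Sulf1 probe 100770064 without Jmjd2c 2 (0.03917), Ndst2 without Luc 5 (0.00569) and Ext2 without Luc 3 (0.04248). The Gpc4 rise was not called with a smooth log2 (0.06111). The cause of these shifts was not tested.

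Readings under 32 carry no order here, which limits Hs3st1, Ndst2, the second Hs6st2 probe and every fold against Luc 4-6 for Hs6st2. The array sets are a reading of the data, and which of culture, RNA preparation and array they mark cannot be told apart. The labels name 1 hairpin per gene, so an effect of that hairpin on other transcripts and an effect of the target cannot be told apart. Protein and heparan sulfate itself were not measured.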
